A study of Sus scrofa with 36 samples.

Results

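Oxidative phosphorylation is carried out by 5 protein complexes of the mitochondrial inner membrane. Complexes I to IV pass electrons from NADH and succinate to oxygen, and complexes I, III and IV pump protons out of the matrix. Complex V, the ATP synthase, lets the protons back in to make ATP. Most subunits are encoded by nuclear genes and imported, and a few are encoded by the mitochondrial genome. In the thyroid gland, whose follicular cells make thyroglobulin, trap iodide and form hormone, this work supplies the ATP for secretion and transport, and thyroid hormone itself is a known regulator of mitochondrial activity in other tissues.

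The genes described here are the nuclear subunits of the 5 complexes, chosen by name only: probes whose gene name begins with NDUF, UQCR, COX4I, COX5, COX6, COX7, COX8 or ATP5, or is SDHA, SDHB, SDHC, SDHD or CYC1. This gave 215 of the 60305 probes of the array, for 79 genes, of which 210 probes for 77 genes had values among the 46097 probes that were tested. By complex these were 35 genes for complex I, 3 for complex II, 9 for complex III, 14 for complex IV and 16 for complex V, and 41 of the 77 genes had more than 1 probe, with a maximum of 15. The measured genes of complex I include 2 assembly factors that the name rule took in, and those of complex V include ATP5SL, taken in by its name alone. The 5 member probes without values were both COX8H probes, the NDUFAF1 probe and 1 probe each of COX7C and NDUFB5, which stood well above background on 0 to 2 of the 36 arrays, and no probe carried the name COX6A2.

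Thyroid RNA came from 36 castrated male pigs, 1 pig per 1-colour array, with 6 pigs in each of 6 groups. The breeds were Creole (CR), Large White (LW) and their cross (F1), and the labels give 24 or 30 °C for each pig. The protocol text, which puts the hot room at 32 °C for 5 days, has the pigs of 24 °C killed ahead of it, so temperature cannot be told apart from the time of slaughter and the age that goes with it. Sire, dam, pen and day of slaughter were terms of the study's model that the labels do not carry. Pigs of a breed were therefore treated as independent, and breed cannot be told apart from the few families that stand for it.

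Arrays have no read depth, and their number limits the precision. A share of 72.8% to 80.3% of spots stood well above background, median intensities lay between 132.5 and 173 units against 25 to 28 for negative controls, and 0 spots were saturated. The members were bright, since 92.4% of their probes lay above the median level of all probes on the log2 scale (8.38), and their median SD between pigs of a group was 0.152, against 0.177 for all probes and 0.144 for probes at least as bright as the median member. The tissue label fitted its markers: thyroglobulin (TG, mean log2 18.8) and the iodide transporter SLC5A5 (16.7) were bright, and the mean of the 6 measured follicular genes lay between 13.65 and 14.57 in every pig. The parathyroid genes PTH and CASR were near background on average (5.81 and 5.88), but PTH ranged from 4.77 to 9.12, and the mean of both lay between 5.32 and 5.81 in CR, 5.37 and 7.50 in F1 and 5.36 and 7.08 in LW. PTH was called in none of the comparisons of breeds (F1 minus CR 1.14, adjusted p = 0.0617), and its part in the results was not tested. The gland is a mixture of cells, and in such bulk RNA fewer cells of a type and less RNA per cell cannot be told apart.

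Each probe is a 60-base oligonucleotide, and part of what follows turns on single probes, so 30-base stretches of the probes that carry a result are printed, from the array design in the scanner files. The first set holds probes of genes that differed between breeds, shown so that the signal can be traced to a sequence.
ATP5G3 probe: actccgaaaactgtagtactggtgtcatgg
NDUFC1 probe: cgtccgttttcttgtggatcttctcatcaa
COX4I2 probe: ttctttggattcacaggtctgatgatttgg
NDUFB8 dim probe: ttccttccagtgctaacattacaacattgt
NDUFB8 bright probe: cctcaatcctagagatttaaccttagtgaa

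The second set holds pairs of probes that lie over one another on the same gene and yet gave different readings. Capitals mark the bases that differ within the stretch, and positions are counted from 1 at its 5′ end, with the base of the first-named probe first.
ATP5J2 dim probe: aTcgGtattacaacaagtacgtGaacgtga
ATP5J2 bright probe: aCcgCtattacaacaagtacgtCaacgtga
NDUFB11 called probe, left stretch: tgccattctgccctTctctcagagcaccta
NDUFB11 other probe, left stretch: tgccattctgccctCctctcagagcaccta
NDUFB11 called probe, right stretch: acctaattaaagggactgaaaatgCaaaaa
NDUFB11 other probe, right stretch: acctaattaaagggactgaaaatgAaaaaa

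The differences were T2C, G5C and G23C in the ATP5J2 stretch, T15C in the left NDUFB11 stretch and C25A in the right one. Over the whole overlap, the ATP5J2 probes differed at 5 of 57 bases and the NDUFB11 probes at 2 of 60.

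The first question was whether the nuclear oxidative phosphorylation genes differed between 24 and 30 °C. None of the 210 member probes passed the test for heat over the 3 breeds (limma with Benjamini-Hochberg adjustment over all 46097 probes, called at an adjusted p under 0.05), where 1.18% of all probes did. At an unadjusted p under 0.05 there were 7 of the 210 member probes, against 4485 of all 46097 probes. The median change over the 77 genes, each shown by its brightest probe, was 0.00016 on the log2 scale, with 39 genes higher and 38 lower at 30 °C, against 0.0081 over all named genes. By probe, the median change of the 210 members was −0.021, with 35.7% higher, against 0.0090 and 55.7% over all probes.

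The 14 core and common subunits named whatever their values gave heat changes from −0.12 (ATP5B) to 0.12 (COX5A), each on its brightest probe. ATP5A1, the alpha subunit of the ATP synthase head, changed by −0.005 ± 0.077 (95% interval) between temperatures. SDHB, the iron-sulfur subunit of complex II, changed by 0.022 ± 0.075, and UQCRC1, a core protein of complex III, by −0.028 ± 0.100. NDUFV1, which binds NADH in complex I, gave 0.000 ± 0.154 on its only probe, whose mean of 8.96 lay far below the median member probe (13.7). COX4I1, the common form of a regulatory subunit of complex IV, gave −0.021 ± 0.104. Every one of these 5 intervals contained 0.

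By complex, the median heat change was 0.013 for complex I, −0.017 for complex II, −0.012 for complex III, −0.035 for complex IV and −0.016 for complex V. Probes of complex V leaned to lower readings at 30 °C, with 13.6% of 59 probes higher, against 55.7% of all probes. The share was 28.6% of 49 probes for complex IV and 33.3% of 24 for complex II. It was 58.6% of 58 probes for complex I and 55% of 20 for complex III. The probes of complex V are not independent, since ATP5A1 alone had 15 and ATP5B, the catalytic beta subunit, had 10, and 0 of them passed the test. The brightest ATP5B probe lay between 15.46 and 16.23 (median 15.73) at 24 °C and between 15.21 and 15.89 (median 15.63) at 30 °C. The ranges overlapped for most of their length, and the change of −0.12 ± 0.064 (SE, 18 pigs a temperature) had an adjusted p of 0.574.

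The member closest to passing for heat was NDUFAB1, the mitochondrial acyl carrier protein, which is also an accessory subunit of complex I. Its second probe lay between 7.86 and 8.84 (median 8.48) at 24 °C and between 7.88 and 8.56 (median 8.21) at 30 °C. The ranges overlapped, and the change of −0.22 ± 0.068 (SE) had an adjusted p of 0.145. It passed only when the fourth F1 pig at 24 °C was left out. The brightest NDUFAB1 probe was not among the 7 member probes with an unadjusted p under 0.05 for heat. The next were 1 probe of UQCRC2, a core protein of complex III (−0.16, adjusted p = 0.248), and 1 of NDUFA6, an accessory subunit of complex I (0.15, adjusted p = 0.261).

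Within single breeds, heat also gave 0 member calls. The share of all probes called was 0.375% in CR, 0.377% in F1 and 0% in LW. Unadjusted p fell under 0.05 for 5, 7 and 1 of the 210 member probes, against 2677, 4901 and 1844 of all 46097 probes. The breed by temperature interaction, an F test of whether the heat change differed between the breeds, called 0% of all probes and 0 members. An unadjusted p under 0.05 was reached by 2146 of all 46097 probes and by 2 member probes. These were 1 probe each of NDUFA4L2, a paralog of NDUFA4 known to be induced by hypoxia, and of UQCRB, a subunit of complex III. The NDUFA4L2 probe changed by −0.31 in CR, 0.43 in F1 and −0.22 in LW. Its interaction p in limma's F test was 0.00853 before adjustment and 0.9999 after it, over 36 pigs, whereas the brightest NDUFA4L2 probe, which shares 48 bases with it without a difference, changed by −0.072, −0.028 and −0.059.

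**Figure D1:**
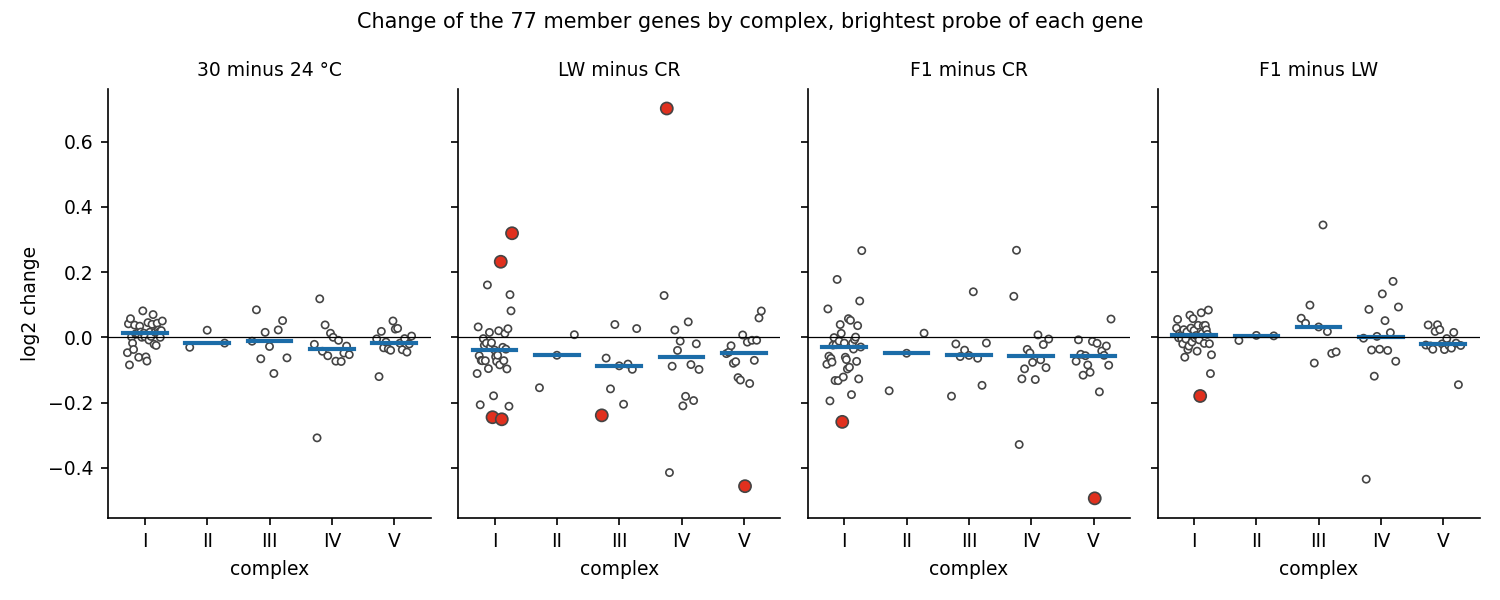
Change on the log2 scale of each of the 77 member genes (brightest probe), by complex, in 4 panels for 30 minus 24 °C, LW minus CR, F1 minus CR and F1 minus LW, with 1 point per gene, a blue bar at the median of the complex and red filled points for an adjusted p under 0.05. No heat point is filled, and most points lie below 0 for LW minus CR (57 of 77) and F1 minus CR (61 of 77), where genes called on a dimmer probe alone are not filled.

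The second question was whether the breeds differed. Between LW and CR, 13 of 210 member probes (6.19%) passed the test, 4 higher and 9 lower in LW, for 10 of the 77 genes. Over all probes the share called was 12.9%, with 7.15% higher and 5.74% lower. At an unadjusted p under 0.05 there were 47 of the 210 member probes, against 12071 of all 46097 probes. The lower genes were ATP5G3, NDUFC2, NDUFB8, NDUFB11, SDHA, CYC1 and COX7C, and the higher ones were NDUFC1, NDUFV3 and COX4I2.

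ATP5G3 (current symbol ATP5MC3) is one of the genes for the c subunit, whose ring turns as protons pass through the ATP synthase, and it held the lowest p of all members. ATP5G3 was read by 1 probe only, so no other probe of the gene could be set beside it. In CR it lay between 15.66 and 16.31 (median 16.08) at 24 °C and between 15.91 and 16.36 (median 16.09) at 30 °C. In F1 it lay between 15.48 and 15.69 (median 15.55) at 24 °C and between 15.43 and 15.88 (median 15.57) at 30 °C. In LW it lay between 15.51 and 15.71 (median 15.64) at 24 °C and between 15.44 and 15.75 (median 15.65) at 30 °C. Of the 12 CR pigs, 11 lay above every F1 and LW pig, and the other one, at 24 °C, lay among them.

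LW was 0.46 ± 0.058 (SE, 12 pigs a breed) lower than CR on the log2 scale, 0.729 times its level (adjusted p = 1.67e-06). F1 lay 0.49 ± 0.058 below CR, at 0.71 times its level (adjusted p = 4.4e-06), and its difference from LW was −0.04 ± 0.058 (adjusted p = 0.874). F1 also lay below the mean of both parent breeds, by 0.27 ± 0.050 (adjusted p = 0.00491), where 0.449% of all probes and 1 member probe (0.476%) were called. That last call was lost with other background corrections (adjusted p = 0.0837 with the scanner's processed signal and 0.0555 with normexp). The other c-ring genes encode the same mature protein, and neither was called: ATP5G1 gave −0.13 (adjusted p = 0.296) and ATP5G2 0.008 (adjusted p = 0.953) for LW minus CR.

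Complex I, which holds 35 of the 77 genes, held 5 of the 10 genes called between LW and CR. By probe, 7 of its 58 were called, where the share over all probes was 12.9%. NDUFC1 and NDUFC2 are small accessory subunits that lie together in the membrane arm, and they moved in opposite directions, each on both of its probes. On the NDUFC1 probe printed above, CR lay between 11.39 and 11.88 (median 11.72), F1 between 11.54 and 11.88 (median 11.81) and LW between 11.73 and 12.12 (median 11.99). The LW pigs were mostly above the others, with a few in the upper part of the CR and F1 ranges. LW was 0.27 ± 0.048 higher than CR on this probe and 0.23 ± 0.047 higher on the second (adjusted p = 0.000209 and 0.000876).

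On the brighter NDUFC2 probe, CR lay between 15.88 and 16.51 (median 16.16), F1 between 15.67 and 16.32 (median 16.03) and LW between 15.62 and 16.21 (median 16.01). The ranges overlapped widely, with the CR pigs shifted upward. LW was lower by 0.25 ± 0.071 (adjusted p = 0.0156), and by 0.18 ± 0.057 on the second probe (adjusted p = 0.0261), whose call depended on each of 3 pigs, 1 CR and 2 LW pigs at 24 °C, without whom it missed the threshold.

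NDUFV3 is an accessory subunit of the arm that oxidizes NADH. Its only probe lay between 10.78 and 11.69 (median 11.37) in CR, between 11.11 and 11.84 (median 11.64) in F1 and between 11.38 and 11.83 (median 11.64) in LW. The CR pigs were spread over a wide range, part of which reached below every LW pig. LW was 0.32 ± 0.095 higher (adjusted p = 0.0213), 1.25 times the CR level.

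NDUFB8, an accessory subunit of the membrane arm, was called on 1 of its 7 probes. That probe was dim, between 7.96 and 8.46 (median 8.19) in CR, 7.63 and 8.28 (median 7.91) in F1 and 7.77 and 8.07 (median 7.90) in LW. The CR pigs were the higher ones, with some overlap. LW lay 0.28 ± 0.061 below CR (adjusted p = 0.00161) and F1 0.29 ± 0.061 below it (adjusted p = 0.00554). The 5 bright NDUFB8 probes did not share this, with changes of 0.020 to 0.080 for LW minus CR and adjusted p from 0.501 to 0.853, and the other dim probe gave −0.12 (adjusted p = 0.231).

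The NDUFB11 probes, which cover the same 60 bases, also parted. NDUFB11 is another accessory subunit of the membrane arm. The called probe lay between 14.64 and 14.93 (median 14.74) in CR, 14.31 and 14.80 (median 14.45) in F1 and 14.23 and 14.93 (median 14.48) in LW, and its CR pigs filled only the upper part of the LW range. LW was 0.24 ± 0.072 lower (adjusted p = 0.0192) and F1 0.26 ± 0.072 lower (adjusted p = 0.0368). The other probe gave −0.03 ± 0.053 (adjusted p = 0.83) and −0.06 ± 0.053 (adjusted p = 0.611). The F1 call was lost with normexp (adjusted p = 0.0934), with array position as a block (adjusted p = 0.0728) and without any of 13 single pigs.

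SDHA, the flavoprotein that oxidizes succinate in complex II, was lower in LW on 2 of 6 probes, by 0.18 ± 0.054 and 0.15 ± 0.046 (adjusted p = 0.0185 and 0.0209). Its brightest probe gave −0.15 ± 0.054 and missed the threshold (adjusted p = 0.0533), and 2 of the 6 changes were above 0 (0.019 and 0.19). On the probe with the lowest p, CR lay between 11.52 and 12.17 (median 11.80), F1 between 11.58 and 11.89 (median 11.71) and LW between 11.54 and 11.86 (median 11.65). The ranges overlapped and only the upper end of CR stood clear.

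The only probe of CYC1, cytochrome c1 of complex III, lay between 13.27 and 13.87 (median 13.42) in CR, 12.98 and 13.57 (median 13.34) in F1 and 12.99 and 13.46 (median 13.26) in LW. The CR pigs reached higher, and many pigs of the 3 breeds shared one range. LW was 0.24 ± 0.070 lower (adjusted p = 0.0195). COX7C, a small subunit of complex IV, was called on 1 of 3 probes, where LW was 0.21 ± 0.062 lower (adjusted p = 0.0204), and its other probes gave −0.19 and −0.15. F1 stood near CR for COX7C, at −0.02 ± 0.062 (adjusted p = 0.903).

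**Figure D2:**
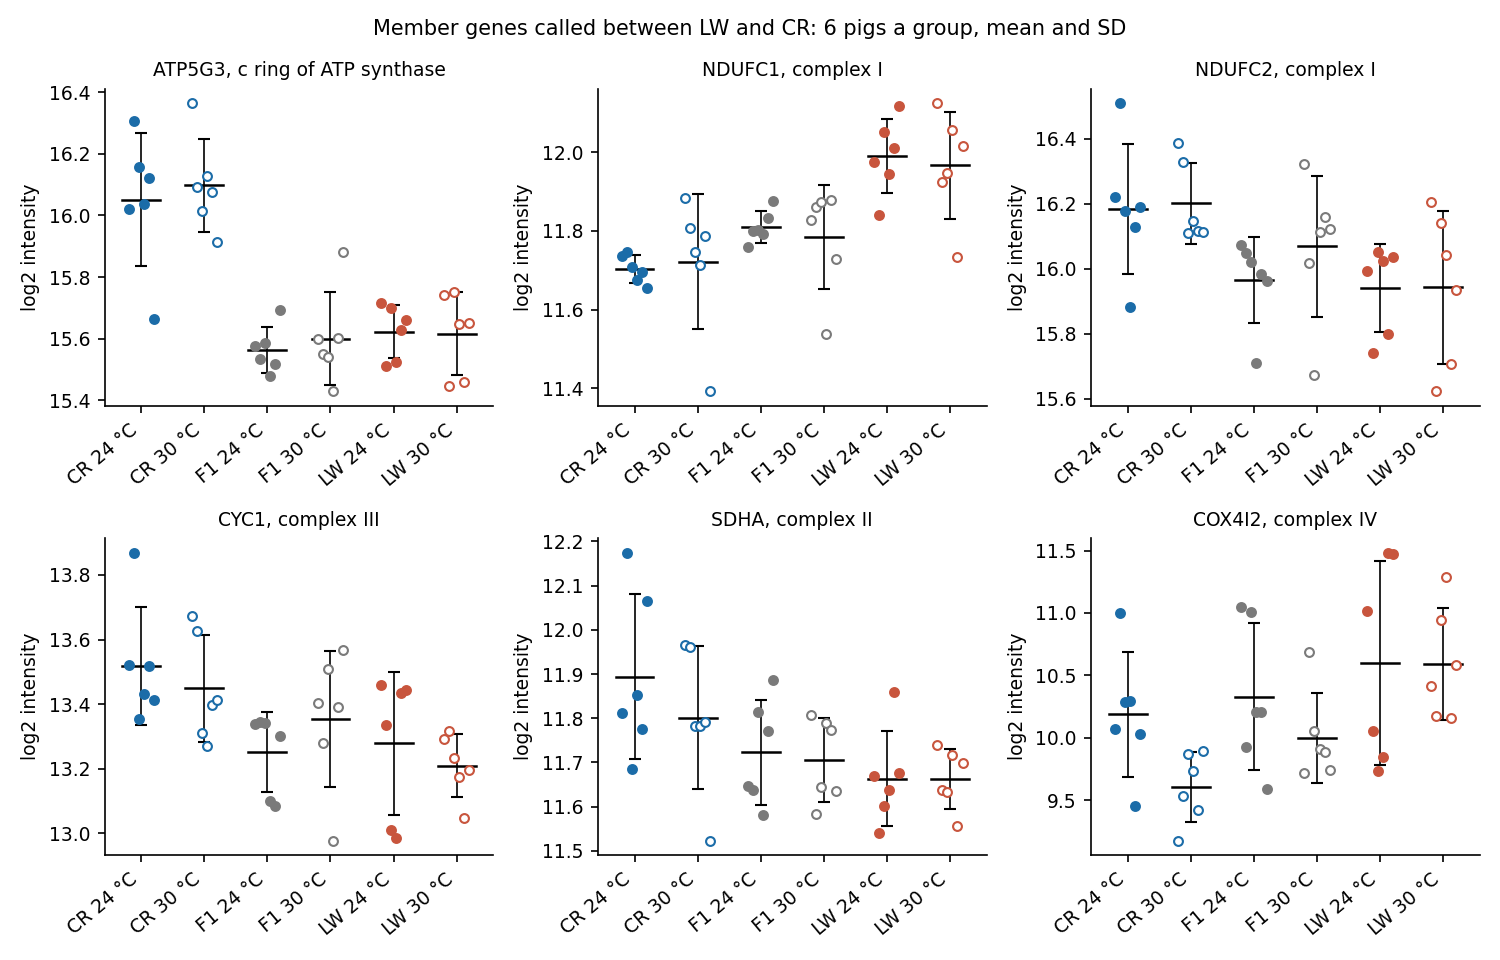
Log2 intensity per pig for 6 of the genes called between LW and CR, in the 6 groups of breed and temperature, filled at 24 °C and open at 30 °C, with a bar at the mean and whiskers of 1 SD over 6 pigs and a separate axis range for each gene. ATP5G3 stands apart in CR (breed mean 16.07) from F1 (15.58) and LW (15.62), whereas the other genes show shifts with overlapping ranges.

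COX4I2 showed the largest change of the called members and also the largest spread. It is the alternative form of COX4, known to be abundant in lung and to be regulated by oxygen. Its only probe lay between 9.18 and 11.00 (median 9.88) in CR, 9.59 and 11.05 (median 9.99) in F1 and 9.73 and 11.48 (median 10.50) in LW. The ranges overlapped almost entirely, with the lowest pigs mostly CR and the 3 highest pigs LW. LW was 0.70 ± 0.205 higher, 1.63 times the CR level (adjusted p = 0.0191).

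The SD of COX4I2 between pigs of a group was 0.528, the highest of the 77 genes, followed by COX5A (0.388), NDUFB9 (0.284), NDUFA4L2 (0.271) and NDUFA12 (0.264). COX4I2 is also known from the mural cells of vessels, and markers of vessel smooth muscle and pericytes, a list added after the data were seen, were higher in LW than in CR on 6 of 28 probes, for ACTA2 (0.22), TAGLN (0.35) and MYH11 (0.28). Over all probes the share called higher in LW was 7.15%. The pericyte genes RGS5, HIGD1B, PDGFRB, NOTCH3, KCNJ8 and ABCC9 held no call, and the mean level of the 11 measured mural genes lay between 10.28 and 10.99 per pig in CR and between 10.43 and 10.93 in LW. Their part in the COX4I2 result was not tested.

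COX4I1, the common form of the same subunit, gave 0.13 ± 0.063 for LW minus CR (adjusted p = 0.186). COX5A, which pairs with COX4 in complex IV, lay between 13.18 and 14.34 (median 13.95) in CR, 12.55 and 14.17 (median 13.60) in F1 and 12.87 and 14.05 (median 13.58) in LW. Its ranges overlapped widely, and LW minus CR, −0.41 ± 0.149, missed the threshold (adjusted p = 0.0605). NDUFA12 gave −0.21 (adjusted p = 0.216) and NDUFB9 −0.08 (adjusted p = 0.705). Of the 14 core and common subunits named whatever their values, CYC1 was the one called on its brightest probe, and SDHA and NDUFB8 were called on dimmer ones. The others gave changes from −0.41 (COX5A) to 0.13 (NDUFV1), among them UQCRC2 (−0.20, adjusted p = 0.191), UQCRC1 (−0.09 ± 0.123, 95% interval), NDUFS1 (−0.03 ± 0.105), SDHB (−0.05 ± 0.092), ATP5A1 (−0.05 ± 0.095) and ATP5B (−0.05 ± 0.160). UQCRFS1, the Rieske protein, was dim and gave −0.08 ± 0.152.

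F1 was called against CR on 3 of 210 member probes (1.43%, against 3.38% of all probes), those of ATP5G3, NDUFB8 and NDUFB11. An unadjusted p under 0.05 was reached by 21 member probes, against 7945 of all 46097 probes. Against LW, F1 was called on 2 member probes (0.952%, against 2.0% of all probes), both of NDUFC1. They were 0.18 ± 0.048 and 0.18 ± 0.047 lower in F1 (adjusted p = 0.0349 and 0.0339). Here 13 member probes had an unadjusted p under 0.05, against 6154 of all probes. The NDUFC1 calls did not hold with either other background correction. UQCRC2, a core protein of complex III, came close for F1 minus LW on its brightest probe, where F1 lay between 12.07 and 12.81 (median 12.59) and LW between 11.65 and 12.56 (median 12.24). The difference was 0.34 ± 0.101 (adjusted p = 0.0665), and its second probe gave −0.02 (adjusted p = 0.956). The F1 comparisons share pigs with each other and with LW minus CR.

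Over all members, the median change lay below 0 in both comparisons with CR. For LW minus CR the median change over the 77 genes was −0.055, with 57 genes lower, against a median of 0.0014 over all named genes and −0.00052 over the 2478 probes at least as bright as the median member. For F1 minus CR it was −0.052, with 61 genes lower, against 0.0039 and −0.012. For F1 minus LW it was 0.0031, with 38 genes lower. In LW minus CR the medians by complex were −0.039 for complex I, −0.055 for complex II, −0.087 for complex III, −0.062 for complex IV and −0.048 for complex V. These counts describe genes that vary together in the same pigs, so they are not separate observations.

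How closely the genes varied together was measured from the deviations of each pig from its group mean. Over the 2926 pairs of member genes the median correlation was 0.39 and 87.3% of pairs lay above 0, whereas over all named genes the median was 0.014 and 52.4% lay above 0. All pairs share the same 36 arrays. The members were brighter than most probes (median 13.7 against 8.38), and no set of like brightness was compared. Slide means were not taken out here. The part of brightness and slide in these correlations was not tested. Within complexes the median was 0.42 for complex I, 0.52 for the 3 genes of complex II, 0.32 for complex III, 0.27 for complex IV and 0.42 for complex V. Among the genes that ran against the rest were NDUFA4L2 (median correlation −0.31 with the other members) and UQCRC2 (−0.12), and COX4I2 was also loosely tied (0.13).

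The mean deviation of the 77 genes from their means over the 36 pigs, on the log2 scale, gives each pig 1 value. It ran from −0.21, in a LW pig at 30 °C, to 0.25, in a CR pig at 24 °C, with an SD of 0.097 within groups. CR lay between −0.095 and 0.251 (median −0.005), F1 between −0.138 and 0.048 (median 0.008) and LW between −0.211 and 0.137 (median 0.012). The breed medians therefore did not follow the order of the breed means (0.032, −0.016 and −0.016), and the CR mean was raised by 3 pigs, at 0.251, 0.205 and 0.149, the highest of the 36. When any single pig was left out, the median change over the genes stayed between −0.069 and −0.032 for LW minus CR and between −0.068 and −0.034 for F1 minus CR. The 3 high CR pigs were never left out together, so these ranges cannot show how far the changes rest on them.

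The value also moved with the slide. Slide means were 0.090, 0.015, −0.067, −0.038 and −0.0003, and the highest 3 pigs lay on slides 1 and 2. Within slides, CR exceeded LW on slides 1 to 4 (0.176 against 0.089, 0.034 against 0.017, −0.047 against −0.069 and −0.026 against −0.121) and not on slide 5, which held 1 CR pig. CR exceeded F1 on slides 1 to 3 (0.176 against 0.006, 0.034 against −0.018 and −0.047 against −0.077). It lay below F1 on slides 4 and 5 (−0.026 against 0.005 and −0.067 against 0.042). Each of these means rests on 1 to 3 pigs of a breed. With the slide as a block the median change was −0.043 for LW minus CR and −0.045 for F1 minus CR, and 20 member probes were called for LW minus CR, 8 higher and 12 lower.

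Other mitochondrial genes were set beside the members. The 17 measured genes of the tricarboxylic acid cycle and pyruvate dehydrogenase, which feed electrons into the chain, followed the members across pigs: their mean level and the member value correlated with r = 0.80 (Spearman's rho = 0.71, 36 pigs), 0.67 without the 2 pigs farthest from the median and 0.80 after slide means were taken out. Within breeds r was 0.93 in CR, 0.80 in F1 and 0.60 in LW. Mitochondrial carriers gave r = 0.61 (rho = 0.51), assembly factors outside the members r = 0.55 (rho = 0.67) and follicular markers r = 0.47 (rho = 0.47). Markers of the calcitonin-producing C cells ran the other way, with r = −0.38 (rho = −0.42), and r = −0.20 after slide means were taken out, and adipocyte markers gave r = −0.04 (rho = −0.13). These values come from the same arrays and are given as a description.

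Between LW and CR, 9 of 65 probes of the tricarboxylic acid cycle list were called, all lower in LW, where the share over all probes was 12.9%. Among them were 7 probes of DLD, the shared dihydrolipoyl dehydrogenase (−0.29 to −0.87), and 1 of SUCLG2, a subunit of succinyl-CoA ligase (−0.38). The shares called in this list and the next ones were near or below that of all probes. Of 57 carrier probes, 8 were called: 4 lower for CYCS, cytochrome c, 2 lower for the uncoupling protein UCP3 and 2 higher for the phosphate carrier SLC25A3. Among the regulators of mitochondrial biogenesis and genome upkeep, 4 of 27 probes were called, higher for SSBP1 (2 probes) and POLG and lower for TFB1M. Of the 31 probes for other assembly factors, 1 was called, COX16 (−0.13). Heat gave 0 calls in each of these lists.

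The subunits encoded by the mitochondrial genome showed another pattern. On this list, also added after the data were seen, F1 was higher than CR on 57 of 128 probes and lower on 2, and higher than LW on 50 and lower on 0, with median changes of 0.19 and 0.16 over the 13 genes. Between LW and CR only 7 of the 128 probes were called. For F1 minus CR, ND5 of complex I was higher by 0.37 ± 0.069, CYTB of complex III by 0.34 ± 0.067, COX3 of complex IV by 0.27 ± 0.059 and ATP6 of complex V by 0.18 ± 0.044 (adjusted p = 0.00146, 0.00333, 0.00724 and 0.0163). The brightest COX1 and ND4 probes gave −0.007 and −0.04 (adjusted p = 0.952 and 0.76). Across the 36 pigs the mean level of these genes was not tied to that of the nuclear members (r = 0.07, rho = 0.15), although within F1 r was 0.74, within CR −0.03 and within LW 0.32. Their mean level per pig lay between 16.73 and 17.03 in CR, 16.96 and 17.15 in F1 and 16.69 and 17.20 in LW, so the F1 pigs lay high and close together while LW spanned the whole range. The difference between the nuclear and the mitochondrial genes was not tested.

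**Figure D3:**
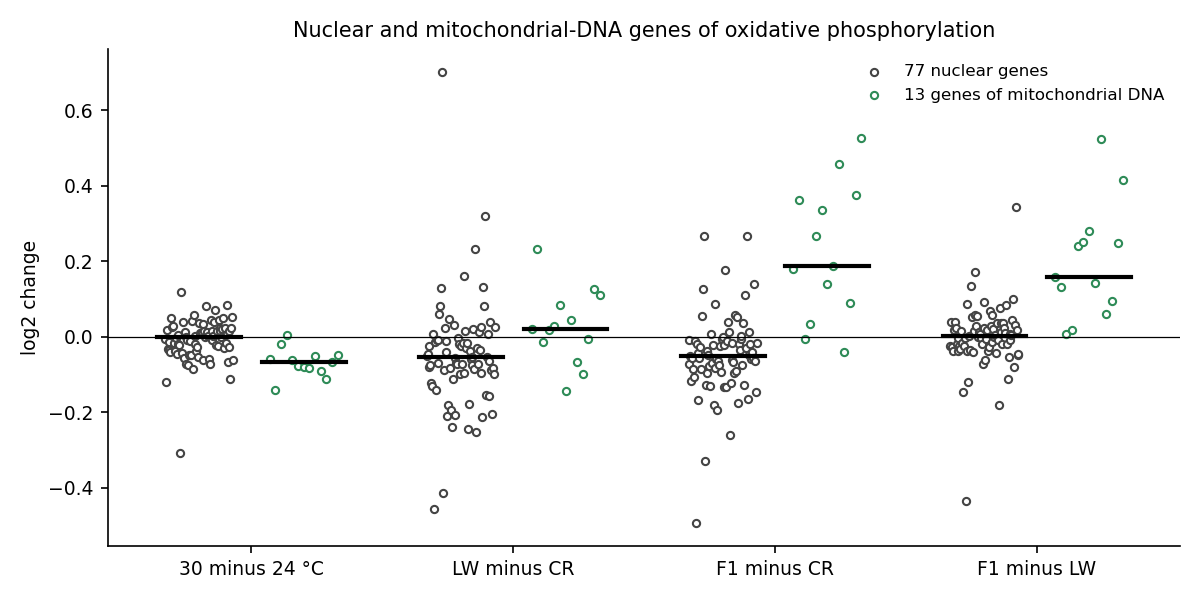
Change on the log2 scale of each of the 77 nuclear genes (grey) and the 13 mitochondrially encoded genes (green), by the brightest probe, for 30 minus 24 °C, LW minus CR, F1 minus CR and F1 minus LW, with a bar at the median. For F1 minus CR the nuclear median was −0.052 and the mitochondrial one 0.19, and for F1 minus LW they were 0.0031 and 0.16.

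**Figure D4:**
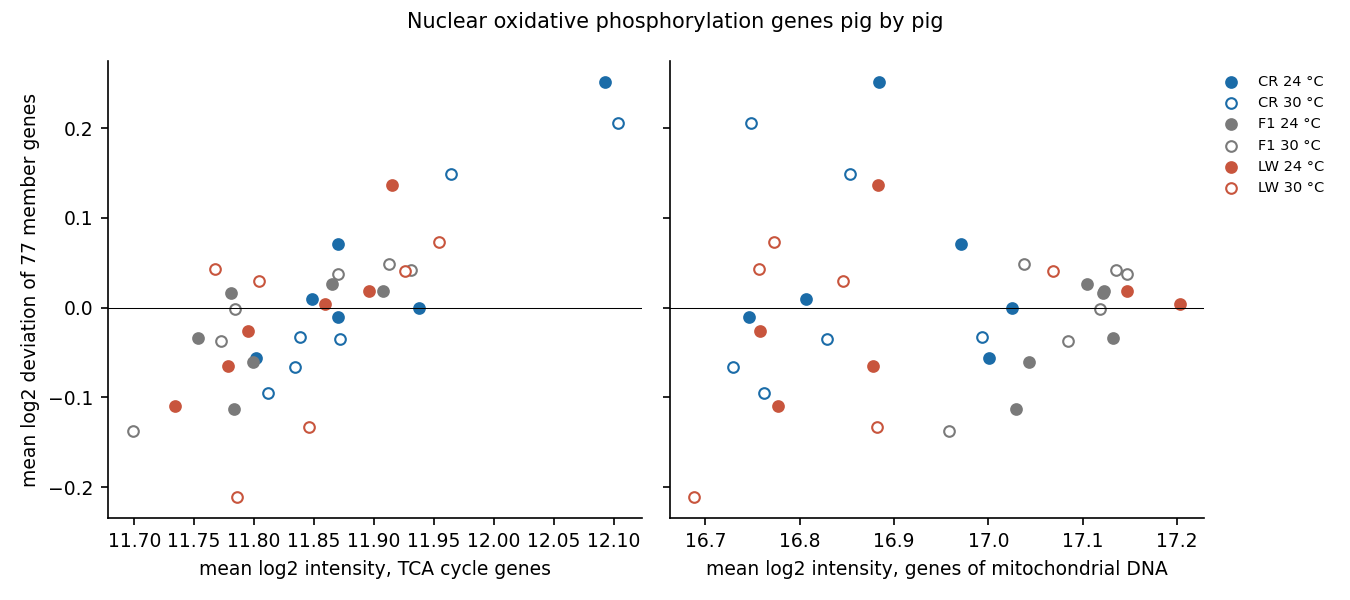
Mean log2 deviation of the 77 member genes per pig against the mean log2 intensity of the tricarboxylic acid cycle genes (left) and of the mitochondrially encoded genes (right), with 1 point per pig, coloured by breed, filled at 24 °C and open at 30 °C. The points rise together on the left (r = 0.80) and not on the right (r = 0.07), and the highest members' values, 0.251 and 0.205, belong to CR pigs.

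Markers of other cells moved between breeds too. Adipocyte markers were lower in LW than in CR on 16 of 22 probes (median change −0.79), and their mean level per pig lay between 9.38 and 10.74 in CR, 9.64 and 10.98 in F1 and 8.87 and 10.05 in LW. Muscle markers were called on 30 of 75 probes, 10 higher and 20 lower in LW, for 3 of the 12 measured genes. Follicular markers were called on 0 of 22, and the share over all probes was 12.9%. The part of these markers in the breed differences of the members was not tested. For heat, 1 of 4 erythroid probes, HBB, was lower at 30 °C (−1.004, adjusted p = 0.00145), where 1.18% of all probes were called.

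COX7A1, the heart and muscle form of a small complex IV subunit, was bright in every pig, between 14.47 and 15.41 on its brightest probe. LW minus CR gave −0.21 ± 0.088 (adjusted p = 0.115) and heat 0.000 ± 0.072 (adjusted p = 1). Its 3 probes were compared with the mean level of the muscle markers, which lay between 8.86 and 9.78 with 1 gap of 0.516. Over all 36 pigs r was −0.05, 0.29 and 0.20, with rho of 0.13, 0.41 and 0.38. The permutation p of r, adjusted over 42 values, were 0.884, 0.234 and 0.411, and those of rho were 0.633, 0.0557 and 0.0844.

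Without the 2 pigs farthest from the median muscle level, r was 0.28, 0.51 and 0.48 (adjusted permutation p = 0.258, 0.0443 and 0.0443), so the value over all pigs depended on those 2 pigs. Within breeds, r for LW was 0.42, 0.74 and 0.72 (adjusted permutation p = 0.339, 0.0443 and 0.0456), for CR −0.40, 0.06 and −0.08 and for F1 0.09, 0.23 and 0.24. At 30 °C r was 0.43, 0.60 and 0.63, and at 24 °C −0.39, 0.06 and −0.09. In LW pigs and at 30 °C, r passed the threshold on 2 of the 3 probes and rho on none: its adjusted permutation p on those probes were 0.131 and 0.119 in LW and 0.0529 and 0.0557 at 30 °C. The difference between these sets of pigs was not tested.

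One member probe read at 2 separate levels, which followed the slide. The dim probe of ATP5J2, a subunit of the membrane part of the ATP synthase, was looked at after its values were seen. It lay between 5.70 and 6.28 in 20 pigs and between 7.37 and 7.86 in 16, with a gap of 1.096 between them. All 16 high pigs were those of slides 3 (7.56 to 7.72) and 4 (7.37 to 7.86), and all 20 low pigs were those of slides 1 (5.70 to 6.12), 2 (5.77 to 6.28) and 5 (5.86 to 5.99). No slide held both levels, and both occurred in all 6 groups, each of which had pigs on slides 1 to 4. The ATP5J2 probe that overlaps it by 57 bases, printed beside it above, had a mean of 13.96 and an SD within groups of 0.164, and it showed no such gap. A gap of at least 1 with at least 5 pigs on each side occurred in 122 of 46036 probes (0.265%) and in 1 of the 210 members. Of those 122 probes, 17 split by whole slides, all 17 between the same slides as ATP5J2.

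The opposite arrangement was found for COX5B, which binds zinc in complex IV. Of its 4 probes, 2 cover the same 56 bases on opposite strands, with 0 differences, as their stretches show.
COX5B opposite-strand probe: ccacctccagatgccatagaccgcacaacg
COX5B probe: cgttgtgcggtctatggcatctggaggtgg

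Both gave signal on the array, with mean log2 of 10.44 and 14.27, and for LW minus CR they gave −0.10 and −0.07 (adjusted p = 0.482 and 0.603).

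**Figure D5:**
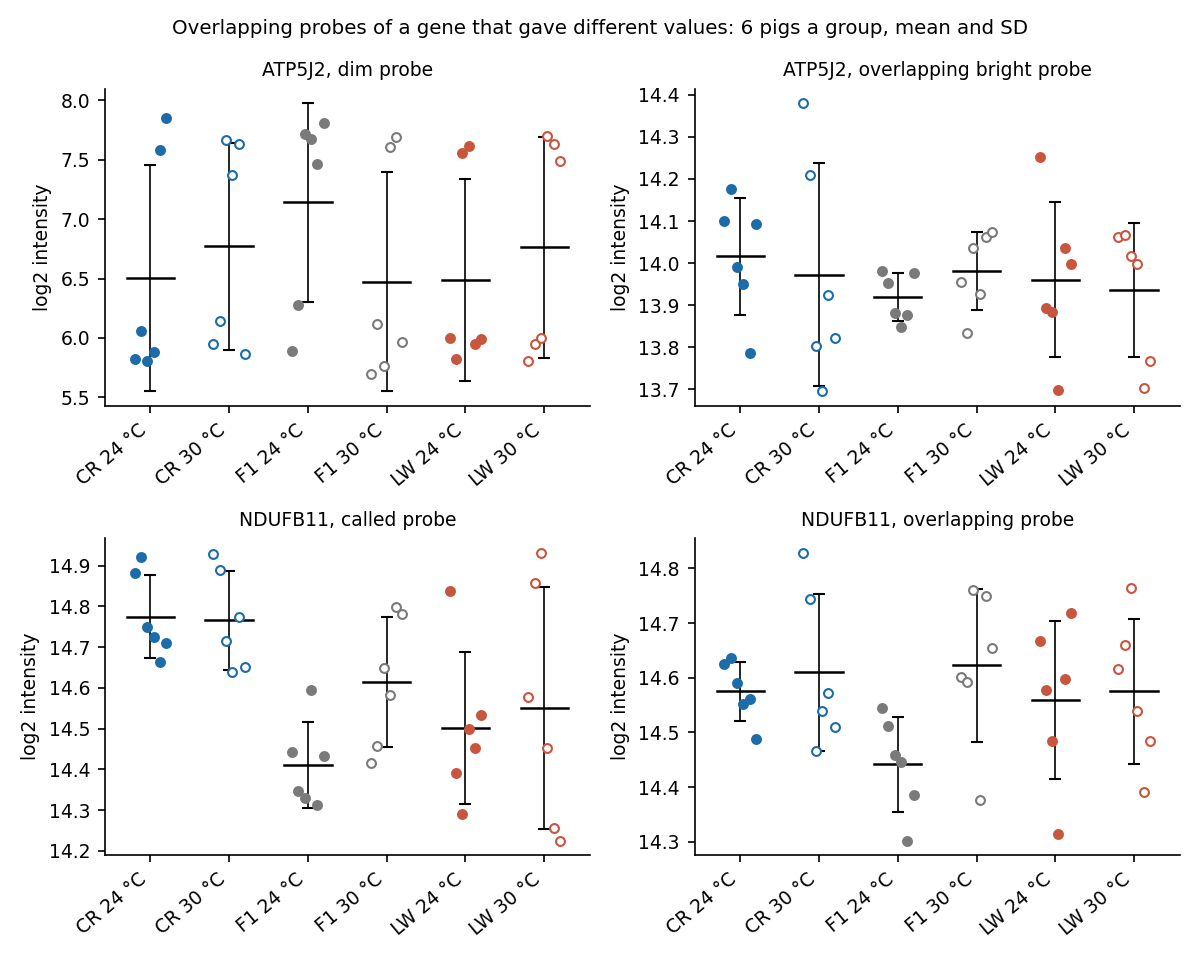
Log2 intensity per pig of the overlapping probes of ATP5J2 and NDUFB11 in the 6 groups, filled at 24 °C and open at 30 °C, with a bar at the mean, whiskers of 1 SD over 6 pigs and a separate axis range for each panel. The dim ATP5J2 probe falls into a level of 5.70 to 6.28 and one of 7.37 to 7.86 in every group, the higher one in the 16 pigs of slides 3 and 4, whereas the pigs on the bright one lie around 13.96.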

How the data were processed

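Thyroid RNA of 36 pigs was hybridized to 1-colour porcine arrays read with Agilent Feature Extraction 10.10.1.1. The scanner files hold spot intensity per the file headers. From the median intensity of each spot's pixels the authors deposited quantile-normalized log2 values (preprocessCore) for 46097 probes, with 63 missing values and 0 in the members. The filter that kept these probes is not stated. Values remade from the intensity files differed by a median of 0.00556.

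These deposited log2 values were fitted with limma 3.58.1 (R 4.3.3, statmod 1.5.0). Breed plus temperature gave heat and breed changes, and 6 group means gave the interaction and heat within breeds. Benjamini-Hochberg adjustment ran over all 46097 probes, with calls at an adjusted p under 0.05. A change is a difference of log2 values. Nothing in the labels says more of the replicates than that each is 1 pig. The fits were tested on simulated data.

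Members and gene lists were chosen with earlier results of these data known. Gene names are those of the files, some of them older symbols such as ATP5G3 for ATP5MC3. Of the 80 member names, 78 were matched to a RefSeq gene list (Sscrofa11.1). A gene is shown by its probe with the highest mean. Genes were named if called (at most 10 a direction), if on a fixed list of catalytic subunits and tissue forms, or if among the 5 with the largest SD within groups. Those closest to passing and the ATP5J2 probe were added after their values were seen. Alternatives were other values, background corrections, slide and position blocks, a filter on dim probes, other models and leaving out each pig. No genome was used, so no coordinates are given. Values of some single genes are not reported here.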

Additional observations from a re-analysis of the deposited data

Results flagged for a closer look

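For the 25 named genes, each shown by its brightest probe, 150 groups of 6 pigs were searched for a pig whose gap to its nearest neighbour, divided by the range of its group, exceeded Dixon's 95% critical value. Chance gives about 1 in 20 such groups, and 10 of the 150 groups held one.

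The second CR pig at 24 °C, which also had the highest mean of the 77 genes, stood above its group for ATP5B (16.23, gap ratio 0.6251), CYC1 (13.87, 0.677) and NDUFV1 (9.35, 0.662). The fourth F1 pig at 24 °C stood below its group for NDUFB8 (14.41, 0.661), NDUFC2 (15.71, 0.696) and UQCRC2 (12.09, 0.632). UQCRC2 was also low in the sixth LW pig at 24 °C (11.65, 0.678). COX4I1 was high in the first LW pig at 24 °C (gap ratio 0.631), COX4I2 in the second F1 pig at 30 °C (10.68, 0.654) and SDHA in the first F1 pig at 30 °C (15.71, 0.687).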

How the results depend on the processing

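All 13 LW minus CR calls held in the 8 other settings tried for them, and leaving out single pigs ended only that of the second NDUFC2 probe, without 1 CR pig or either of 2 LW pigs at 24 °C. With the slide as a fixed block the count was 20 (8 higher, 12 lower). For F1 minus CR the count of 3 became 2, without NDUFB11, with normexp or with the array position as a block. For F1 minus LW the count of 2 became 0 with the processed signal, 0 with the array position as a block and 1, COX7C, with normexp. For F1 minus the mean of CR and LW it became 0 with the processed signal and 0 with normexp. For heat within F1 it became 1, a UQCRC2 probe, with the slide as a fixed block. Leaving out each pig in turn gave 12 to 18 calls for LW minus CR, 2 to 4 for F1 minus CR, 0 to 3 for F1 minus LW, 1 to 1 for F1 minus the mean and 0 to 1 for heat, the 1 being NDUFAB1 without the fourth F1 pig at 24 °C. The F1 minus LW count fell to 0 without any of 3 LW pigs at 24 °C, 2 LW pigs at 30 °C or 2 F1 pigs at 30 °C. The cause was not tested in any of these. No result reversed, but the median changes for heat and F1 minus LW lay so near 0 that their sign varied (−0.018 to 0.009 and −0.020 to 0.019 without single pigs). No paired analysis was possible, since each pig was killed at a single temperature and the labels do not name its litter. The study arranged its pigs in blocks of littermates, which the fits could not include. Arrays have no read depth, and signal over background limits the 16 of 210 member probes below the median level of all probes, 4 of which were not well above background on every array.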
